A study of Mus musculus with 21 samples.

Results

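Transcripts of 8 genes of the fat cell were followed through 21 RNA libraries of mouse liver tumours: Adipoq, Cfd, Retn, Lep, Plin1, Plin4, Cidec and Fabp4. The genes were given by symbol and chosen because earlier results on these same libraries had shown their levels, so their levels and changes are described here without a test of their own. All 8 were found among the 55487 gene identifiers of the count table. The tumours were grown from Hepa1-6, a mouse hepatoma cell line, in C57BL/6 mice, and RNA came from frozen tumour pieces. In the WT isotype arm (5 libraries) mice had their B cells and received isotype control antibody. In the WT combination arm (5) they received anti-PD1 plus anti-CTLA4, antibodies against 2 inhibitory receptors of T cells. In the B-depleted isotype arm (6) and the B-depleted combination arm (5) B cells had been depleted and the same antibodies were given. How B cells were depleted, where the tumours grew, the age of the mice and whether each library is a separate animal are not stated in the labels. P-values therefore measure the spread between these samples, which may in part be technical. Library 4 of the B-depleted combination arm stood apart from the other 20 libraries in all 8 genes, and results that rest on it are given with and without it.

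White adipocytes store triglyceride in a single large lipid droplet and release hormones into the blood. Adiponectin (Adipoq), adipsin (Cfd), resistin (Retn) and leptin (Lep) are secreted proteins, while perilipin 1 (Plin1), perilipin 4 (Plin4) and the droplet fusion protein Cidec coat lipid droplets and Fabp4 carries fatty acids in the cytoplasm. Adipoq, Plin1 and Lep are close to exclusive to adipocytes. Fabp4 is also made by macrophages and capillary endothelium, mouse Retn mainly by white fat, and Cidec and Plin4 by other lipid-storing cells such as fatty hepatocytes or muscle. A tumour growing next to fat can carry fat cells into the piece that is frozen. In bulk RNA the number of cells of a type and the RNA per cell cannot be told apart.

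The 8 genes lie on 7 chromosomes, all are protein coding, and positions are those of GRCm38. Adipoq is at chr16:23146536-23158028 (+ strand), Cfd at chr10:79890853-79892655 (+), Retn at chr8:3655770-3660110 (+), Lep at chr6:29060220-29073877 (+), Plin1 at chr7:79720218-79732903 (-), Plin4 at chr17:56100591-56109803 (-), Cidec at chr6:113424634-113435760 (-) and Fabp4 at chr3:10204088-10208576 (-). Plin4 is the 1 gene of the 8 whose annotated span overlaps another gene, the last bases of Hdgfl2 on the opposite strand, which ends at 56100607. Whether reads were counted by strand is not stated in the labels.

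The 8 genes were highest in the same library, so the 250 bases upstream of their RefSeq start sites (GRCm38.p6) were searched for short motifs known from fat-cell promoters. The RefSeq table held 8 promoters of 7 of the genes, with 2 for Cidec, and Fabp4 was not matched. The C/EBP core, TTGCNNAA on either strand (N, any base), the element read by the adipocyte factor C/EBPalpha, was found in 3 of the 8 windows, those of Lep, Plin1 and the downstream start of Cidec. Of 32851 promoter windows of the same length 9.56% held it. The CCAAT box (CCAAT or its reverse complement) was found in the windows of Adipoq and Plin4 and in 33.8% of all windows. Neither the nuclear receptor half-site AGGTCA, held by 14.0% of all windows, nor TATAAA, held by 12.4%, was found in any of the 8. No match of 1 motif overlapped a match of another. The windows below are those of 4 genes with a match, chosen to show both motifs, read 5' to 3' on the strand of the gene, with motif matches in capitals. Those of Lep and Plin1 stop at the first annotated exon base. Plin1 had a further C/EBP core 58 bases before its RefSeq start, inside an annotated exon and not shown, and the window of Plin4 is also not shown. A match describes letters in a window and not a bound site.
Adipoq, chr16:23146286-23146535: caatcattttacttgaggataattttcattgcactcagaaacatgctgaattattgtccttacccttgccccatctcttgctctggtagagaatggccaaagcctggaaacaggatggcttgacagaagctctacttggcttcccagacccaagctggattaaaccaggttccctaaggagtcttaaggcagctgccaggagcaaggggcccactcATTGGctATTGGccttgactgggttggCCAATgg
Lep, chr6:29059971-29060219: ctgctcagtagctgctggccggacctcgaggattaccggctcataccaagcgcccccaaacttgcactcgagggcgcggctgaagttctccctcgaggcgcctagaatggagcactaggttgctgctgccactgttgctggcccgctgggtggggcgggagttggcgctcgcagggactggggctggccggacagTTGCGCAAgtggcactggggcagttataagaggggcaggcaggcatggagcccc
Cidec downstream start, chr6:113434765-113435014: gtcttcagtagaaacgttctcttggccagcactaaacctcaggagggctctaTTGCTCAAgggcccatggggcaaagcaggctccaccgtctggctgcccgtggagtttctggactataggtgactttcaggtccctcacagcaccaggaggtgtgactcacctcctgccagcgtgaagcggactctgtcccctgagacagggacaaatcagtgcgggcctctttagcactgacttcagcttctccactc
Plin1, chr7:79732904-79733026: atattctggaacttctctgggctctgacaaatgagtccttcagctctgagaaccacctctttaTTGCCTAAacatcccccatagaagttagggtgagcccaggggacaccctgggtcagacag

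The shallowest library held 9.52 M counts, the deepest 19.17 M and the median one 15.9 M. Levels are counts divided by the library total in M (CPM). A gene with 0 counts could have been at up to 0.1565 CPM (3 counts) in the deepest library and 0.315 CPM in the shallowest. The tumour tissue was recognisable in all libraries: albumin (Alb) was at 76.36 CPM or more and alpha-fetoprotein (Afp) at 24.3 CPM or more. Levels below 1 CPM rest on fewer than 20 counts per library, and error from counting alone is then large.

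Transcripts of the secreted proteins were low in 20 of the libraries, with Cfd at up to 4.904 CPM, and high in 1. Adipoq, the most specific of them, was at 23.64 CPM (291 counts) in B-depleted combination replicate 4. The other 4 libraries of that arm were at 0.42, 0.077, 0 and 0 CPM (replicates 1, 2, 3 and 5). WT isotype libraries were at 1.104 CPM in replicate 1 and at 0 in the other 4, and WT combination libraries at 0.1125, 0.1903, 0.1258, 0.5931 and 0.4561 CPM in replicate order. In the B-depleted isotype arm (6 libraries) Adipoq ran from 0 through a median of 0.174 to 0.8348 CPM. Apart from the 1 high library the 4 arms overlapped, and 8 of 21 libraries had no Adipoq read.

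Cfd, the serine protease that cleaves factor B in the alternative complement pathway and 1 of the most abundant transcripts of mouse fat, had the highest level of the 8. It reached 137.9 CPM (1697 counts) in B-depleted combination replicate 4, against 1.26, 0.1541, 0 and 0.4284 CPM in replicates 1, 2, 3 and 5. WT isotype libraries held 3.699, 0, 0.4116, 0.0573 and 0.717 CPM and WT combination libraries 0, 0.8247, 0.1258, 0.5931 and 2.085 CPM in replicate order. B-depleted isotype libraries ran from 0 through a median of 0.6993 to 4.904 CPM, the highest being replicate 6. That library and WT isotype replicate 1 followed the high library in order, at levels 28.1-fold lower or more.

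Retn and Lep were the rarest of the 8. Retn was at 10.32 CPM (127 counts) in B-depleted combination replicate 4, at 0.2142 CPM in replicate 5 and at 0 in replicates 1, 2 and 3. In the other arms it lay between 0.0573 and 0.276 CPM (WT isotype), 0 and 0.3172 CPM (WT combination) and 0.0593 and 0.5217 CPM (B-depleted isotype), with medians of 0.1764, 0.0593 and 0.2206 CPM. Lep was at 5.768 CPM (71 counts) in B-depleted combination replicate 4, at 0.0714 CPM in replicate 5 and at 0 in the other 3. It was at 0 in 12 of 21 libraries, and its next highest values were 0.6412 CPM in B-depleted isotype replicate 3 and 0.552 CPM in WT isotype replicate 1. Neither gene separated the arms beyond the spread of their libraries.

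Droplet coat genes showed the same library at the top and a low level in most others. Plin1, which guards the droplet against lipolysis, was at 39.48 CPM (486 counts) in B-depleted combination replicate 4 and at 0.105, 0.5392, 0.0744 and 0.7854 CPM in replicates 1, 2, 3 and 5. WT isotype libraries held 1.325, 0.133, 0.2352, 0 and 0.1655 CPM, and WT combination libraries 0.1125, 0.8247, 0.9435, 3.262 and 0.7819 CPM. B-depleted isotype libraries ran from 0 through a median of 0.1755 to 1.357 CPM. In 4 of the 5 WT combination libraries Plin1 exceeded 4 of the 5 WT isotype libraries, while replicate 1 of either arm went the other way, so the arms overlapped.

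Plin4, a perilipin of small droplets, was found in all 21 libraries. Its level was 102.7 CPM (1264 counts) in B-depleted combination replicate 4 and 1.785, 0.7703, 0.4465 and 0.714 CPM in replicates 1, 2, 3 and 5. WT isotype libraries were at 5.134, 0.4656, 2.058, 1.031 and 1.048 CPM, and WT combination libraries at 0.956, 3.743, 1.447, 3.915 and 5.473 CPM. In the B-depleted isotype arm the range was 0.4153 to 8.452 CPM with a median of 2.075 CPM. Without replicate 4 the B-depleted combination arm had the lowest mean of the 4 (0.929 ± 0.588 CPM, SD, n = 4, against 1.947 ± 1.872, n = 5, 3.107 ± 1.873, n = 5, and 3.419 ± 3.515, n = 6), within the spread of the others.

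Cidec, which drives droplet fusion, was at 28.92 CPM (356 counts) in B-depleted combination replicate 4 and at 0.315, 0.4622, 0.5209 and 0.8568 CPM in the other 4 libraries of the arm. WT isotype libraries ran from 0.133 to 0.8833 CPM, WT combination libraries from 0.1887 to 0.5213 CPM, and B-depleted isotype libraries from 0.0593 to 2.243 CPM. All 21 libraries held at least 1 Cidec read, and without the high library the 4 arms overlapped.

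Fabp4 differed from the other 7 in its level outside the high library. It was at 112.8 CPM (1389 counts) in B-depleted combination replicate 4 and at 10.19, 15.64, 11.46 and 16.78 CPM in replicates 1, 2, 3 and 5. WT isotype libraries held 19.38, 11.51, 22.64, 23.54 and 21.46 CPM and WT combination libraries 16.65, 21.19, 14.97, 33.16 and 27.43 CPM. B-depleted isotype libraries ran from 8.827 through a median of 20.15 to 32.09 CPM. The high library was thus 3.40-fold above the next, WT combination replicate 4, where for the other 7 genes the step to the next library was 8.995-fold (Lep) to 28.1-fold (Cfd). The summed level of 11 macrophage genes ran from 719.6 to 6049 CPM and that of 10 endothelial genes from 135.6 to 513.2 CPM over the 20 other libraries; their part in the Fabp4 level was not tested.

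**Figure D1:**
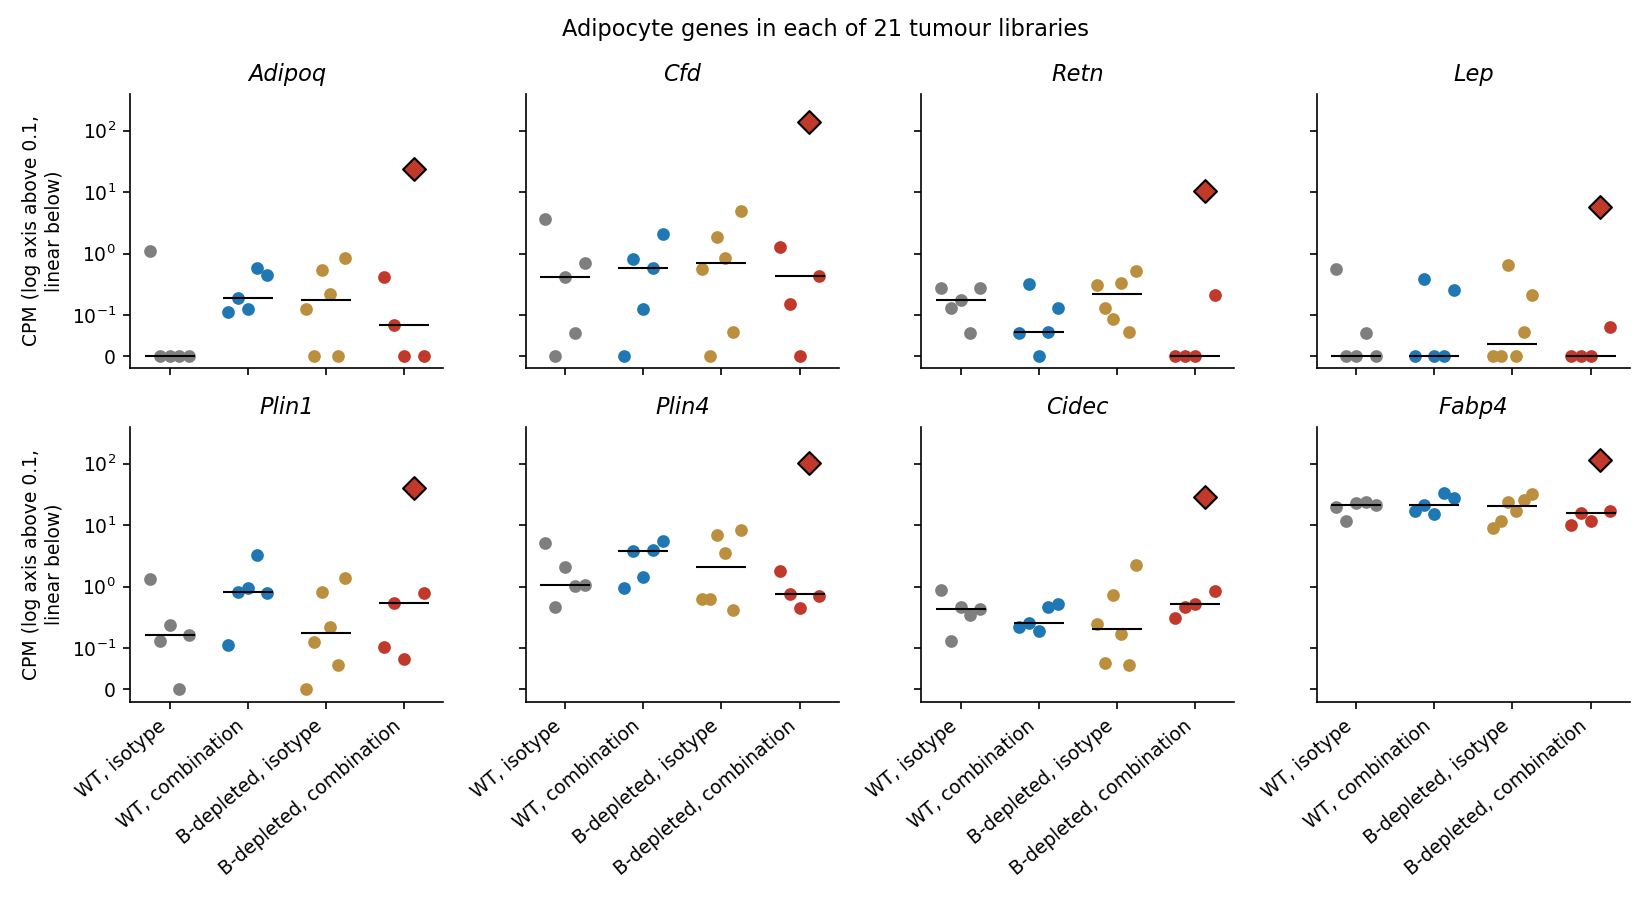
Level of each of the 8 adipocyte genes in CPM (vertical axis, logarithmic above 0.1 and linear below) in each library (points), by arm (horizontal axis); bars mark the median of an arm and the diamond marks B-depleted combination replicate 4. The diamond is the highest point in all 8 panels, and the remaining libraries overlap between arms.

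By transcript length the order of the genes in B-depleted combination replicate 4 was Cfd, Fabp4, Plin4, Adipoq, Cidec, Plin1, Retn and Lep. The levels, in counts per kilobase of annotated exon and per M counts, were 149.5, 25.14, 17.77, 17.12, 15.58, 8.492, 6.534 and 1.72. In the other 20 libraries the median level per length was 4.027 for Fabp4, 0.538 for Cfd, 0.216 for Plin4 and 0.211 for Cidec, while Adipoq (0.0861), Retn (0.0819), Plin1 (0.0493) and Lep (0) were lower still. Plin4, Adipoq and Cidec in the high library lie close enough together that their order rests on the exon lengths used, 5777, 1381 and 1856 bases. The union of annotated exons used here can exceed the transcript that is made, which lowers the level per length. For Fabp4 the union of 4489 bases takes up its whole annotated span, chr3:10204088-10208576. Its place below Cfd thus also rests on the length used.

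The ratios of the 8 genes to each other within a library could be compared in the 4 libraries with at least 10 Adipoq counts. Cfd counts were 5.83 times those of Adipoq in B-depleted combination replicate 4 (log2 ratio 2.54, 95% exact binomial interval 2.36 to 2.73) and 5.88 times in B-depleted isotype replicate 6 (2.55, 1.78 to 3.42). In WT isotype replicate 1 the log2 ratio was 1.74 (1.01 to 2.54), and in WT combination replicate 4, with 10 counts of either gene, it was 0 (-1.42 to 1.42). Plin1 kept a log2 ratio of 0.74, 0.70 and 0.26 to Adipoq in the first 3 of these libraries and stood at 2.46 (1.47 to 3.60) in WT combination replicate 4. Fabp4 had a log2 ratio of 2.25 (2.07 to 2.44) in the high library and of 5.26, 4.13 and 5.80 in the other 3, so its excess over Adipoq was smaller where Adipoq was high. Plin4 lay between 2.12 and 3.34 in all 4, and Cidec at 0.29, 1.43 and -0.32 in the 3 libraries with enough counts. The intervals cover counting error only.

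**Figure D2:**
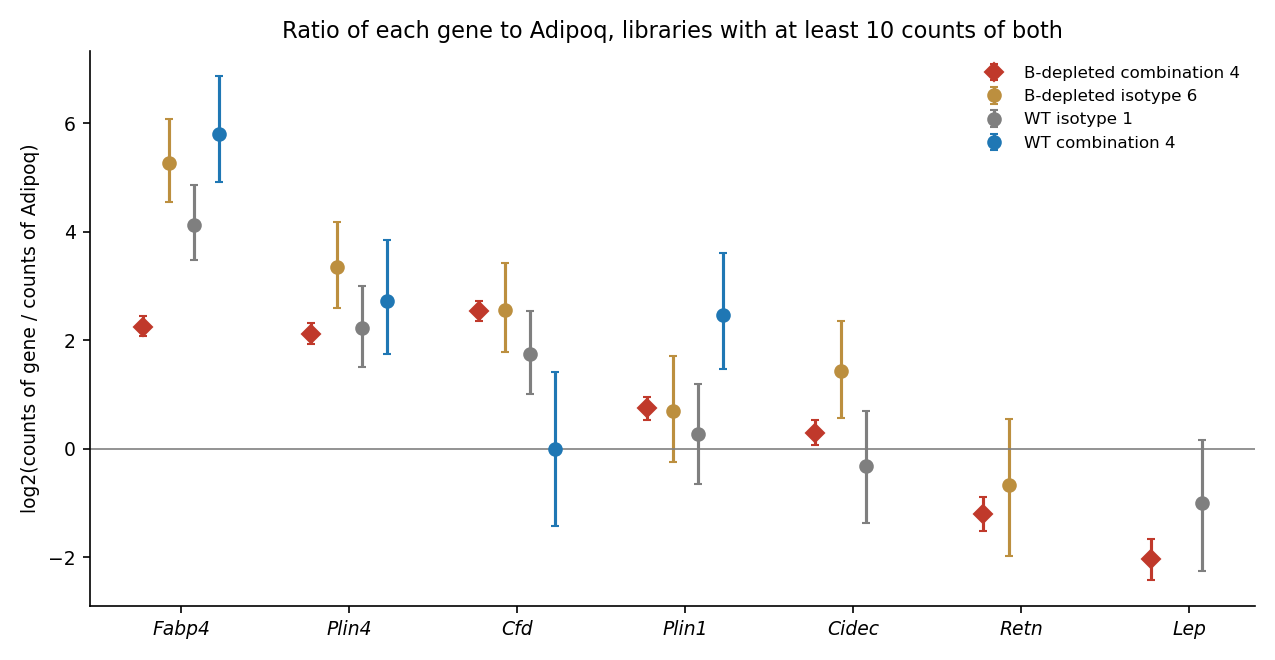
Log2 ratio of counts of each gene to counts of Adipoq (vertical axis) for 7 genes (horizontal axis) in the libraries with at least 10 counts of both; bars are 95% exact binomial intervals, which cover counting error only. Fabp4 is lowest relative to Adipoq in B-depleted combination replicate 4 (2.25 against 4.13 to 5.80), while Cfd is at 2.54 and 2.55 there and in B-depleted isotype replicate 6.

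Libraries other than the highest also had an order. B-depleted isotype replicate 6 was second for 4 of the genes (Cfd, Plin4, Cidec, Retn), WT combination replicate 4 for 2 (Plin1, Fabp4), WT isotype replicate 1 for Adipoq and B-depleted isotype replicate 3 for Lep. The summed level of the 8 genes was 461.5 CPM in B-depleted combination replicate 4 and 10.71 to 50.61 CPM in the other 20, of which Fabp4 made up most. Without Fabp4 the sum was 348.7 CPM against 0.712 to 18.52 CPM, with B-depleted isotype replicate 6 (18.52), WT isotype replicate 1 (12.97) and B-depleted isotype replicate 3 (11.54) next in order. These 3 libraries come from both isotype arms. Plin4 made up 6.87 CPM of the sum in B-depleted isotype replicate 3, where skeletal muscle genes summed to 1096 CPM. The part of muscle in that Plin4 level was not tested.

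Against the pooled other 4 libraries of its own arm, the high library held 236-fold more Adipoq (291 counts against 5, 95% interval 100 to 733), 344-fold more Cfd (1697 against 20, 222 to 565) and 119-fold more Plin4 (1264 against 43, 88.0 to 166). Plin1 was 98.6-fold higher (486 against 20, 63.1 to 163), Cidec 51.6-fold (356 against 28, 35.1 to 78.8) and Fabp4 8.18-fold (1389 against 689, 7.46 to 8.98). Retn (127 counts against 3) had a ratio of 172 with an interval of 57.5 to 844, and Lep (71 against 1) a ratio of 288 with an interval of 50.1 to 11540. These intervals compare 1 library with others and carry no error between animals.

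Fat cells make other transcripts, and a list of 16 of these was examined (Adig, Adrb3, Acvr1c, Aqp7, Car3, Hcar1, Lgals12, Lipe, Mrap, Pparg, Slc2a4, Slc7a10, Thrsp, Trarg1, Sncg and Nnat). This list was also drawn up with earlier results of these data known. In B-depleted combination replicate 4, 13 of the 16 exceeded every other library. The share of all genes that did so was not counted, here or for the lists below. Mrap, Pparg and Trarg1 did not. Car3, a carbonic anhydrase abundant in fat and in slow muscle, was at 305.2 CPM there and at 33.43 CPM or less elsewhere. Hormone-sensitive lipase (Lipe) was at 45.49 CPM against 13.29 to 22.03 CPM in the other 20 libraries. The beta-3 adrenergic receptor Adrb3, the switch of lipolysis in mouse fat, was at 8.773 CPM against 1.191 CPM or less. The summed level of the 16 was 454.4 CPM, against 33.06 to 91.52 CPM in the other libraries. Pparg, the master regulator of the adipocyte that macrophages also express, was at 12.59 CPM, inside the range of 3.713 to 17.74 CPM of the others.

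Markers of tissues that border a tumour were read in the same libraries. Skeletal muscle genes (16) summed to 50.2 CPM in B-depleted combination replicate 4, below the median of 153.0 CPM of the other 20, with parvalbumin (Pvalb) at 0. They were highest in WT combination replicates 5 (1314 CPM) and 4 (1084), B-depleted isotype replicate 3 (1096) and WT combination replicate 2 (719.0). Genes of the epidermis (11) summed to 16.17 CPM in the high library, against 11.27 to 25.85 CPM elsewhere, and of the mammary epithelium (6) to 9.748 CPM against 5.931 to 20.14 CPM. At 0 there were Krt1, Lor, Flg and Krtdap of the epidermis, Csn2, Wap, Lalba and Elf5 of the mammary gland, and Cpa1, Pnlip, Ctrb1 and Cel of the pancreas (6 genes), each of which was also at 0 in 11 to 20 of the 21 libraries. Among 10 brown fat genes Ucp1 and Elovl3, 2 of its defining markers, were at 0 there, and Cidea (0.5686 CPM) exceeded the other libraries. Ucp1 was at 0 in 14 and Elovl3 in 19 of the 21 libraries, so a 0 does not set this library apart. The 10 genes summed to 12.59 CPM there, inside the range of 7.115 to 16.45 CPM of the other libraries. No gene among 7 of fat stroma and preadipocytes, 8 of fibroblasts, 10 of endothelium, 11 of macrophages and 7 of hepatocytes and hepatoma was higher there than in all other libraries. Summed over the list, fat stroma genes were at 264.9 CPM against 104.5 to 750.7 CPM, and hepatocyte and hepatoma genes at 2064 CPM against 216.8 to 4339 CPM. In 2 further lists a single rare gene was above the other libraries, Cpb1 of the pancreas (0.2437 CPM against 0.0593 or less) and Elane of neutrophils (0.6499 against 0.3081 or less), both named after their values were seen. The sums of both lists (13.57 and 77.33 CPM) lay inside the ranges of the other libraries (4.211 to 15.14 and 23.55 to 778.9 CPM). Where in the frozen piece the adipocyte transcripts came from was not tested.

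**Figure D3:**
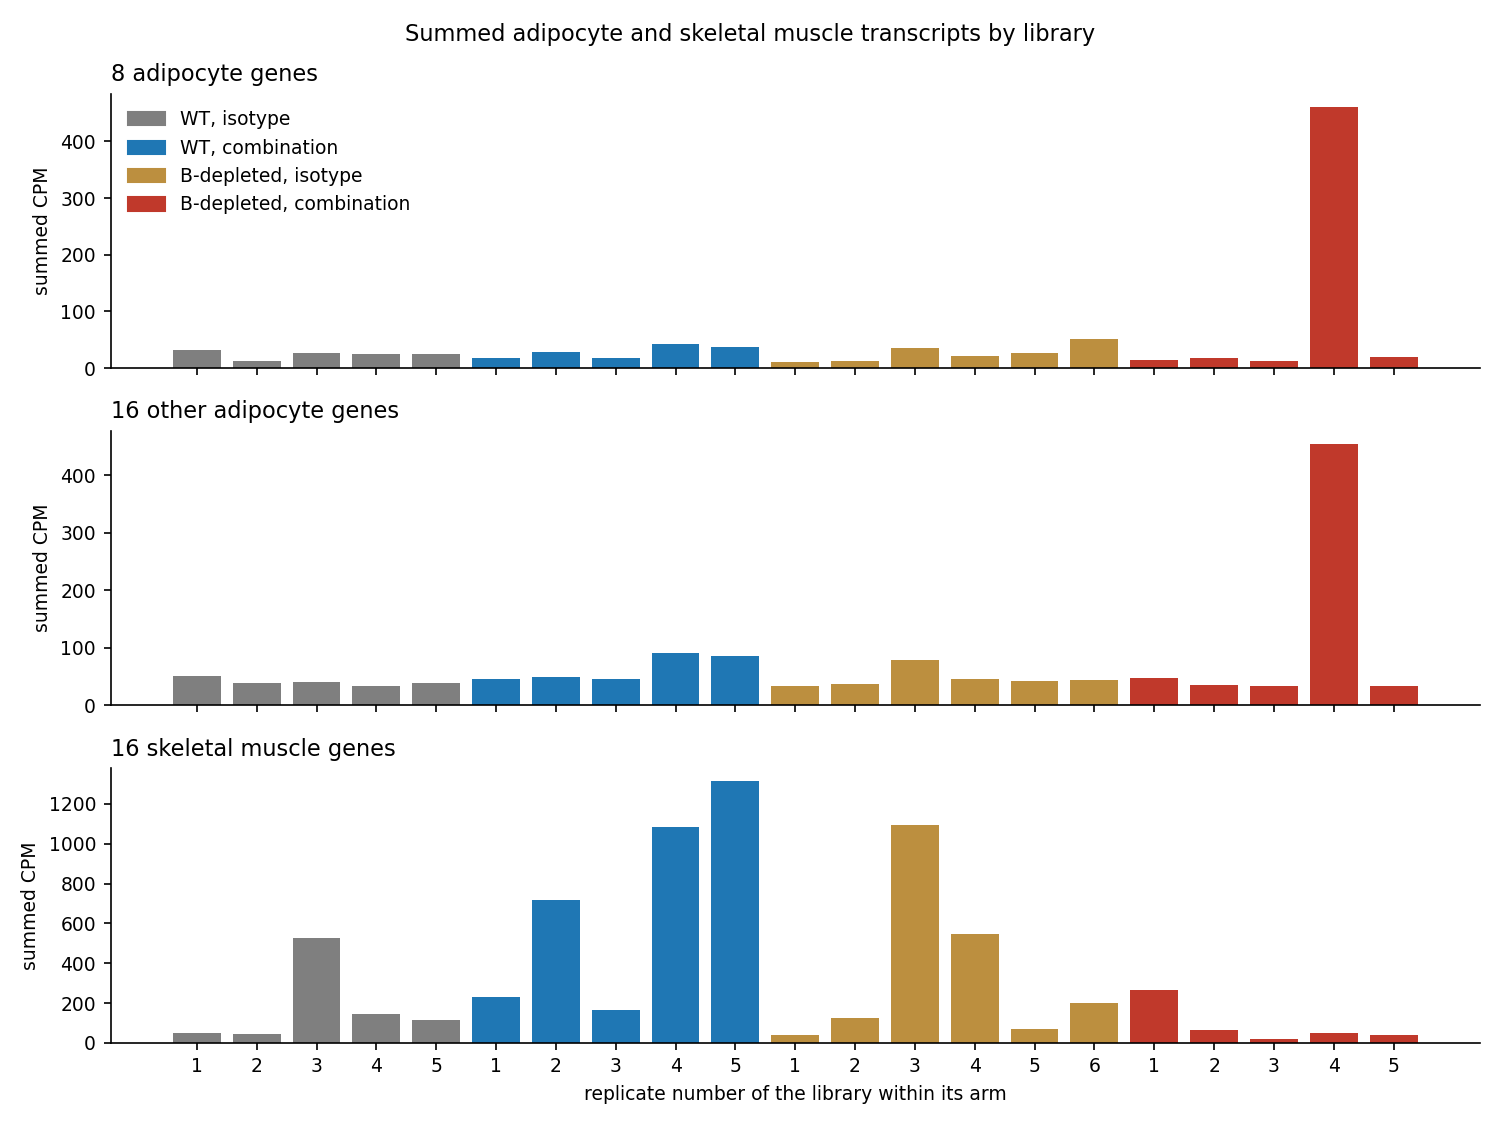
Summed CPM (vertical axes, linear from 0) of the 8 adipocyte genes, of 16 other adipocyte genes and of 16 skeletal muscle genes in each library (bars), coloured by arm and numbered by replicate. B-depleted combination replicate 4 stands at 461.5 and 454.4 CPM in the upper panels and at 50.2 CPM in the lower one, where WT combination replicates 4 and 5 and B-depleted isotype replicate 3 are highest, at 1084, 1314 and 1096 CPM.

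All arms were fitted together with edgeR's quasi-likelihood test on 19061 genes, with calls made where the p adjusted by Benjamini-Hochberg was under 0.05. Of the 8 genes 5 passed the filter on low counts (Cfd, Plin1, Plin4, Cidec, Fabp4). Adipoq, Retn and Lep did not, and their changes are from a fit without the filter. Genes chosen with the levels of 1 high library known are bound to look different there, so their calls are given as a description. Comparisons that share an arm share its libraries.

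In WT tumours the levels of the 8 genes overlapped between the combination and isotype arms. Log2 changes ± SE from isotype were -0.46 ± 1.77 for Cfd, 1.65 ± 1.43 for Plin1, 0.67 ± 1.26 for Plin4, -0.45 ± 1.31 for Cidec and 0.22 ± 0.54 for Fabp4. Adipoq (0.33 ± 1.85), Retn (-0.72 ± 1.59) and Lep (-0.04 ± 1.74) had errors larger than their change. Of the 5 tested genes 0 were called, where 50.0% of all genes tested were called in this comparison. Leaving out 1 library moved the Cfd change between -1.34 and 1.20, so it had no stable direction. With all libraries the SE exceeded 1 log2 unit for all but Fabp4. B-depleted combination replicate 4 is in neither arm but entered the shared estimate of the spread. Without it the SE was 1.18 for Cfd, 0.96 for Plin1, 0.77 for Plin4, 0.77 for Cidec and 0.31 for Fabp4. Changes of several fold could go uncalled in either fit.

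In B-depleted tumours the fitted changes from isotype to the combination were positive for all 8 genes with replicate 4 in the arm, and negative for the 5 tested genes without it. With all libraries they were 4.35 ± 1.48 for Cfd, 4.25 ± 1.30 for Plin1, 2.67 ± 1.15 for Plin4, 3.38 ± 1.04 for Cidec and 0.79 ± 0.52 for Fabp4. Adipoq (4.02 ± 1.48), Retn (3.02 ± 1.16) and Lep (3.06 ± 1.47) had positive changes in the fit without the filter. The 5 tested genes had 0 calls, against 0.341% of all genes. Without replicate 4 the changes were -1.67 ± 1.36 for Cfd, -0.12 ± 1.10 for Plin1, -1.91 ± 0.89 for Plin4, -0.11 ± 0.76 for Cidec and -0.53 ± 0.32 for Fabp4. The count of calls stayed at 0.

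Between B-depleted and WT tumours under isotype antibody, arms that do not hold the high library, the changes were 0.47 ± 1.58 for Cfd, 0.17 ± 1.51 for Plin1, 0.77 ± 1.21 for Plin4, 0.37 ± 1.17 for Cidec and -0.02 ± 0.52 for Fabp4. Adipoq (0.31 ± 1.78), Retn (0.41 ± 1.36) and Lep (0.05 ± 1.90) had equally wide errors. The high library still entered the shared estimate of the spread. Without it the SE was 1.09 for Cfd, 0.99 for Plin1, 0.74 for Plin4, 0.70 for Cidec and 0.30 for Fabp4. Leaving out 1 library turned the direction of Cfd (-0.727 to 2.14), Plin1 (-0.81 to 1.62) and Fabp4 (-0.226 to 0.149). Of the 5 genes 0 were called by edgeR, and 0.0% of all genes were (563 of 19061 at an unadjusted p under 0.05, and 5 genes called by DESeq2).

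Under the combination, B-depleted tumours had fitted changes from WT of 5.28 ± 1.71 for Cfd, 2.78 ± 1.25 for Plin1, 2.77 ± 1.24 for Plin4, 4.2 ± 1.19 for Cidec and 0.55 ± 0.54 for Fabp4. Of the 5 genes 2 were called, Cfd and Cidec, where 29.1% of all genes were called. DESeq2 gave neither gene a p-value. Without replicate 4 the changes were -0.76 ± 1.44 for Cfd, -1.60 ± 1.07 for Plin1, -1.80 ± 0.91 for Plin4, 0.70 ± 0.83 for Cidec and -0.76 ± 0.34 for Fabp4, and 0 of the 5 were called. Cfd thus turned from higher to lower, and the count of all genes called went from 5545 to 3336. The count of 2 also fell to 1 without WT combination replicate 2, 4 or 5, and rose to 3 without B-depleted combination replicate 5. It was 1 as well without B-depleted isotype replicate 3 or 6, where Cidec fell below the filter.

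The difference between the responses of B-depleted and WT tumours to the combination was 4.81 ± 2.28 for Cfd, 2.61 ± 1.97 for Plin1, 2.00 ± 1.69 for Plin4, 3.83 ± 1.68 for Cidec and 0.57 ± 0.75 for Fabp4. None of the 5 was called (0 of 5), where 0.0262% of all genes, 5 in number, were. Without replicate 4 it was -1.23 ± 1.80, -1.77 ± 1.46, -2.58 ± 1.17, 0.34 ± 1.08 and -0.74 ± 0.45 in the same order, with 0 of all genes called by edgeR (4132 at an unadjusted p under 0.05). Over all 21 libraries DESeq2 called 1210 genes for this difference.

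**Figure D4:**
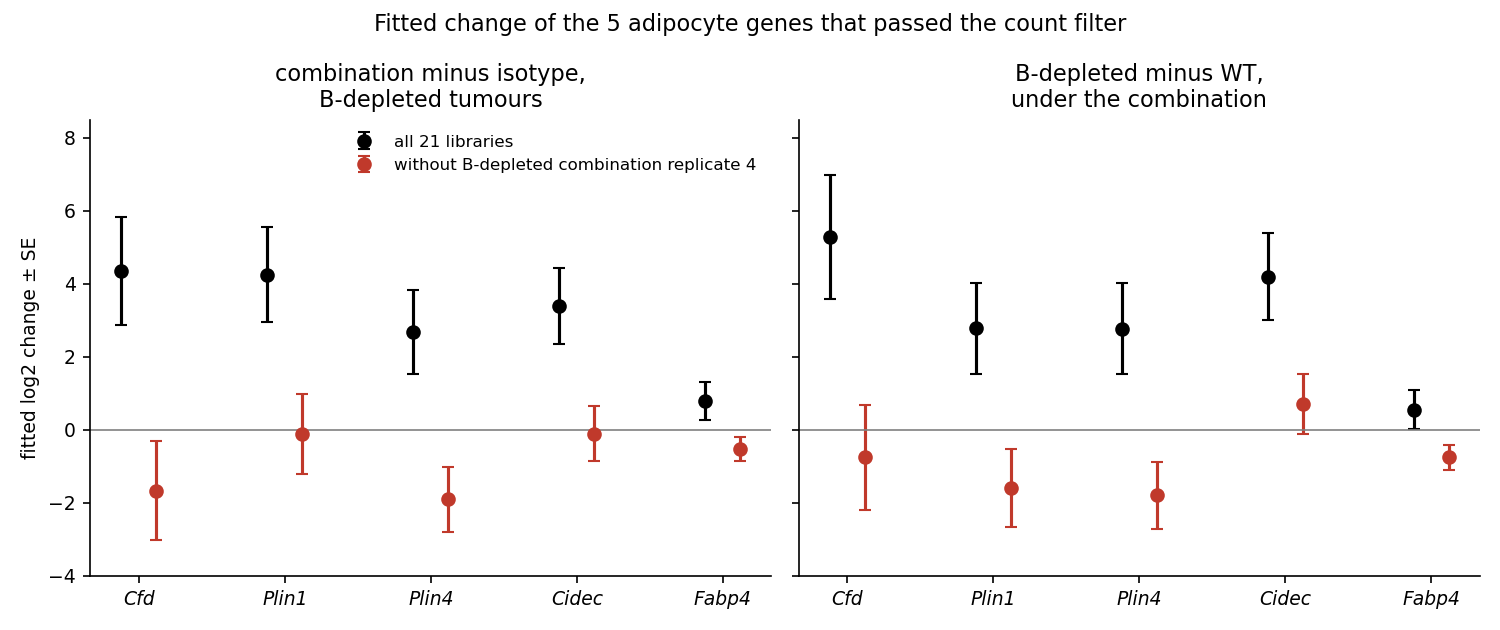
Fitted log2 change (vertical axis, points, with SE as bars) of the 5 tested adipocyte genes (horizontal axis) from isotype to the combination in B-depleted tumours (left) and from WT to B-depleted tumours under the combination (right), with all libraries (black) and without B-depleted combination replicate 4 (red). All 10 black points lie above 0, and 9 of the 10 red points lie below it, the exception being Cidec on the right at 0.70.

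Of the 16 other adipocyte genes 9 were tested. In WT tumours 1 was called (50.0% of all genes were), Trarg1, which regulates traffic of the insulin-responsive glucose transporter and rose from 4.847 ± 1.242 to 9.033 ± 4.563 CPM (SD, n = 5 each). Its log2 change was 0.92 ± 0.37 (edgeR adjusted p = 0.0428), and WT combination libraries ran from 5.032 to 15.96 CPM against 3.207 to 6.514 CPM in WT isotype, so the arms overlapped. By edgeR the call was lost without WT isotype replicate 2 (adjusted p = 0.0583), 3 (0.0722), 4 (0.107) or 5 (0.0843), WT combination replicate 4 (0.165) or 5 (0.0893), B-depleted isotype replicate 4 (0.0524) or 6 (0.0504), or B-depleted combination replicate 1 (0.0519) or 2 (0.0512). Trarg1 is also made by muscle, and WT combination replicates 4 and 5 held the high muscle sums given above; the part of muscle in its level was not tested. In B-depleted tumours 0 of the 9 were called (0.341% of all genes were), with Car3 at 2.75 ± 1.32 (edgeR adjusted p = 0.348) and Lipe at 0.43 ± 0.22 (0.380). Without B-depleted combination replicate 4 Car3 was at -1.96 ± 1.17 (0.445 by edgeR) and Lipe at 0.01 ± 0.13 (0.979), so the direction of Car3 turned. Between the isotype arms 0 were called as well (0.0% of all genes were), with Car3 at 1.29 ± 1.38 and Lipe at -0.02 ± 0.22.

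Under the combination 1 of the 9, Adrb3, was called between B-depleted and WT tumours, where 29.1% of all genes were called. Adrb3 changed by 2.54 ± 0.84 (edgeR adjusted p = 0.0308), with 2.135 ± 3.714 CPM against 0.3596 ± 0.2871 CPM (SD, n = 5 each). Without B-depleted combination replicate 4 its change was 0.35 (adjusted p = 0.673 by edgeR), and the call was also lost without WT combination replicate 1 (0.0544), 4 (0.0722) or 5 (0.0832). Without B-depleted isotype replicate 6 the gene fell below the filter. In the fit without B-depleted combination replicate 4, Sncg, a synuclein abundant in white fat, was the 1 gene of the list called (-1.27, edgeR adjusted p = 0.0327). That fit called 3336 of 19378 genes in this comparison. The difference between the responses called 0 of the 9 by edgeR (0.0262% of all genes were called), with Car3 at 0.73 ± 1.90 and Lipe at 0.15 ± 0.32. Both turned direction without B-depleted combination replicate 4, to -3.98 ± 1.57 for Car3 (edgeR adjusted p = 0.184) and -0.27 ± 0.18 for Lipe (0.359).

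Lipid pathways that fat cells share with hepatoma cells, macrophages and endothelium were followed in 3 lists, in which genes other than the 3 with the highest mean CPM were named after their values were seen. Of 26 genes of triglyceride and fatty acid handling, 11 were above every other library in B-depleted combination replicate 4 (Pnpla2, Dgat2, Agpat2, Gpd1, Acsl1, Cidea, Pck1, Fasn, Scd1, Acaca and Acly). The list summed to 3694 CPM there and to 1733 to 2348 CPM elsewhere. Of the 26, 23 were tested, and in WT tumours 8 were called higher and 3 lower with the combination (median log2 change 0.017, against -0.001 over all genes). The share called was close to the 50.0% of all genes called in this comparison (4766 higher and 4763 lower of 19061). Lipoprotein lipase (Lpl) rose from 170.8 ± 14.4 to 407.6 ± 193.1 CPM (1.27 ± 0.28, edgeR adjusted p = 0.0012) and the droplet coat gene Plin2 from 185.0 ± 18.0 to 243.6 ± 27.8 CPM (0.42 ± 0.11, 0.00491), while fatty acid synthase (Fasn) fell from 362.0 ± 87.3 to 156.1 ± 30.0 CPM (-1.20 ± 0.23, 0.000498; SD, n = 5 each). The 3 called lower, Fasn, Acly and Gpam, encode enzymes that build fatty acids and glycerolipid. Without B-depleted combination replicate 4 the counts were 9 higher and 5 lower, Gpd1, Acaca and Scd1 being added after its removal.

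In B-depleted tumours 1 of the 23 was called between combination and isotype, where 0.341% of all genes were. It was Fabp5, the close relative of Fabp4 that macrophages and tumour cells express (1.06 ± 0.20, edgeR adjusted p = 0.0279). By edgeR its call was lost without B-depleted isotype replicate 1 (adjusted p = 0.0753), 2 (0.0887), 4 (0.0539) or 6 (0.081) or B-depleted combination replicate 3 (0.0567) or 5 (0.0775). Fabp5 was at 76.44 CPM in B-depleted combination replicate 4 and at 39.04 to 220.8 CPM elsewhere, so it did not share the excess of Fabp4 there. Between the arms under the combination 5 were higher in B-depleted tumours (Dgat2, Acaca, Fasn, Scd1 and Gpam, which make fatty acids and triglyceride) and 5 lower (Fabp5, Cd36, Mgll, Lpl and Cideb, median 0.13), where 29.1% of all genes were called (2963 higher and 2582 lower). Without replicate 4, 3 of the former remained called (Fasn, Scd1, Gpam) and 5 were lower (Cd36, Mgll, Lpl, Lpin1, Cideb). Scd1, the desaturase of fatty acid synthesis, was at 1115 CPM in replicate 4 and at 78.51 to 224.0 CPM elsewhere, and its change went from 1.88 ± 0.49 to 0.55 ± 0.14 without that library (edgeR adjusted p = 0.0129 and 0.0228).

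Transcription factors of adipogenesis were called higher in 6 of 11 cases in WT tumours with the combination (Rxra, Nr1h3, Cebpa, Zfp423, Ebf1, Ebf2) and lower in 1 (Srebf1), with a median of 0.48, where 50.0% of all genes were called. Srebf1, which drives lipid synthesis genes, changed by -0.30 ± 0.08 (edgeR adjusted p = 0.00647), Rxra by 0.48 ± 0.19 (0.0456) and Cebpb by 0.24 ± 0.20 (0.326). The call of Rxra was lost in 14 of 21 refits without 1 library, with edgeR adjusted p-values of 0.0526 (without WT combination replicate 2) to 0.14 (without WT combination replicate 5). The others were those without WT isotype replicate 1, 2 or 5, WT combination replicate 4, B-depleted isotype replicates 2 to 6 and B-depleted combination replicate 1, 2 or 4. In B-depleted combination replicate 4 none of the 11 factors exceeded the other 20 libraries (0 of 11). Under the combination 1 was higher in B-depleted than WT tumours (Srebf1, 0.32 ± 0.08, edgeR adjusted p = 0.0125) and 2 were lower (Cebpa, Ebf1), beside 29.1% of all genes called. Without B-depleted combination replicate 4 Srebf1 and Cebpa kept their calls, Ebf1 lost its call (edgeR adjusted p = 0.0828) and Ebf2 was called lower. The Ebf1 call was lost in 14 of 21 refits without 1 library, with edgeR adjusted p-values up to 0.136.

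Receptors and partners of the secreted proteins showed no excess in the library with the highest ligand levels: 0 of 11 were above the other 20 libraries there. Adiponectin receptor 2 (Adipor2) fell with the combination in WT tumours (-0.69 ± 0.17, edgeR adjusted p = 0.00254), the adenylate cyclase-associated protein Cap1, described as a resistin receptor, rose (0.34 ± 0.09, 0.0036), and complement C3, the protein that the convertase made with the help of Cfd cleaves, rose (0.87 ± 0.21, 0.00273). In all 5 of the 11 genes were higher (Tlr4, Cap1, C3ar1, C3, Cfp) and 2 lower (Adipor1, Adipor2), with a median of 0.55, beside the same 50.0% of all genes. In B-depleted tumours 0 of the 11 factors and 0 of the 11 receptors and partners were called by edgeR, beside 0.341% of all genes. Under the combination 3 receptors or partners were lower in B-depleted than in WT tumours (Cap1, C3 and Cfp), beside 29.1% of all genes called. Of these, 2 (Cap1 and C3) were called without replicate 4, where 3336 of 19378 genes were. The call of Cfp was lost in 12 of 21 refits without 1 library, that of Cap1 in 5 and that of C3 in 1. In B-depleted combination replicate 4 C3 was at 873.0 CPM, inside the range of 455.1 to 2052 CPM of the other libraries, while Cfd was at its highest.

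The calls in these 3 lists (48 genes) were refitted without each library in turn. In WT tumours 0 to 2 of 25 calls were lost, 2 of them without WT combination replicate 4 or 5. Under the combination between B-depleted and WT tumours 0 to 11 of 16 were lost, the most without WT combination replicate 4 (11) or 5 (9) and B-depleted combination replicate 3 (7), 1 (6), 2 (6) or 4 (5). Calls were also gained, 0 to 3 in WT tumours and 0 to 8 under the combination. Most were gained under the combination without B-depleted combination replicate 5 (8) or WT combination replicate 3 (7) or 1 (6). Fasn, Scd1, Gpam and Srebf1 kept that call in all 21 refits. The summed macrophage genes were 4440 ± 1199 CPM in WT combination, 1618 ± 354.1 CPM in WT isotype, 1345 ± 483.0 CPM in B-depleted isotype and 2311 ± 736.9 CPM in B-depleted combination tumours (SD, n = 5, 5, 6 and 5), and hepatocyte and hepatoma genes summed to 645.0 ± 426.3, 2635 ± 1404, 2479 ± 760.9 and 1856 ± 554.9 CPM in the same order. Their part in the changes of the shared lipid genes was not tested.

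The genes most like the 8 over the 21 libraries were sought among the other genes that passed the filter on low counts. The measure was Pearson r of log2 CPM (prior count 2) with the mean of the 8. Genes below the filter, such as Pck1 and Thrsp, were not ranked. The 10 highest were Cyp2e1 (r = 0.91), Gpd1 (0.87), Cdo1 (0.82), Adrb3 (0.78), Car3 (0.77), Lipe (0.77), Smoc1 (0.76), Nat8l (0.74), Gnai1 (0.72) and Slc2a4 (0.71). Cyp2e1 is a cytochrome P450 of liver and fat, and Gpd1 makes the glycerol phosphate on which triglyceride is built. The libraries share arms and depth, and 1 library sets much of these values. With B-depleted combination replicate 4 left out, which was decided after seeing the data, r was 0.69 for Cyp2e1, 0.57 for Gpd1, 0.46 for Cdo1, 0.36 for Adrb3, 0.69 for Car3 and 0.28 for Lipe. Only Cyp2e1 and Car3 were then still among the 10 highest (2 of 10), which were led by Igkv1-135, an immunoglobulin segment (0.77).

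For single genes of the 8, the nearest gene was Gpd1 for Adipoq (0.90) and Plin1 (0.81), Car3 for Plin4 (0.89), Cdo1 for Lep (0.81) and Cyp2e1 for Cfd (0.88), Retn (0.86), Cidec (0.84) and Fabp4 (0.76). Without the high library the nearest to Fabp4 was Cbr2 (0.83), followed by Agtr1a (0.80) and Clec10a (0.79), and Clec10a is a lectin of macrophages and dendritic cells. The nearest to Cfd then was again Cyp2e1 (0.73), to Adipoq Tppp (0.73), followed by Car3 (0.72), and to Cidec Bdkrb1 (0.66). The nearest to Plin4 were Car3 (0.847), Mypn (0.835) and Atp2a1 (0.769), the last of which is among the 16 skeletal muscle genes. The nearest to Plin1 was 4833422C13Rik (0.795), to Retn Mast4 (0.747) and to Lep Igkv1-135 (0.753). In the other 20 libraries the 3 nearest to Fabp4 held none of those of Adipoq or Cfd. The same was true of Plin1, Cidec and Retn, so this did not set Fabp4 apart. Plin4 had a muscle gene near it. These are descriptions of these libraries that were not tested.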

How the data were processed

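Per the submitters' processing notes, reads were trimmed with cutadapt 2.4 and aligned with STAR 2.7.2a to GRCm38. The counting tool and annotation release are not named in the labels. The authors deposited raw read counts per Ensembl gene for 21 libraries, made from TruSeq Stranded mRNA per the labels' protocols. Of 55487 identifiers 55227 were paired with a symbol.

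Levels are CPM of the library total (9.52 to 19.17 M), and counting intervals (95%) and floors (3 counts) cover counting error only. All 21 libraries were fitted with edgeR 4.0.16 (robust quasi-likelihood, TMM factors 0.953 to 1.029, filterByExpr with a minimum count of 10, Benjamini-Hochberg threshold 0.05) in R 4.3.3, as a model of 4 arms, after a test on simulated data. The SE given with an edgeR change was calculated as the absolute log2 change divided by the square root of its quasi-likelihood F. Alternatives used limma 3.58.1 and DESeq2 1.42.0, other scaling, filters, blocks and thinning, and each library left out in turn. Promoter sequences are from RefSeq (GRCm38.p6).

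The 8 genes, the other gene lists and the tests were chosen with earlier results of these data known. Named genes were the 8; up to 4 called genes per direction of the other adipocyte list, or the 2 with the highest mean CPM where none was called; the 10 genes most like the 8 and the 3 nearest each; and in other lists the 3 with the highest mean CPM and any at 0 in all libraries.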

Additional observations from a re-analysis of the deposited data

Results flagged for a closer look

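In 56 groups, each the 5 or 6 libraries of 1 arm, a single library lay far from the rest of its arm in 23 cases. The 8 genes were chosen with these levels known, and the list of other adipocyte genes with earlier results of these data known. The groups also share libraries, and many levels rest on few counts. The number of cases due to chance is therefore not known, and all 23 are a description only. B-depleted combination replicate 4 accounted for 13 of the 23. These were Adipoq (23.64 CPM), Cfd (137.9), Plin1 (39.48), Plin4 (102.7), Fabp4 (112.8), Cidec (28.92), Retn (10.32), Lep (5.768), Adrb3 (8.773), Lipe (45.49), Car3 (305.2), the sum of the 8 genes (461.5) and the sum of the 16 other adipocyte genes (454.4).

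The other 10 lay at much lower levels. WT isotype replicate 1 stood above its arm for Adipoq (1.104 CPM), Cfd (3.699), Plin1 (1.325) and Lep (0.552). WT combination replicate 4 did so for Plin1 (3.262 CPM), and B-depleted isotype replicate 6 for Cfd (4.904) and Cidec (2.243). B-depleted isotype replicate 3 did so for Lep (0.6412 CPM), Car3 (31.42) and the sum of the other adipocyte genes (78.32), and its skeletal muscle genes summed to 1096 CPM. The part of muscle in its Car3 level was not tested.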

How the results depend on the processing

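The counts below moved with the setting; fitted changes that turned direction without 1 library are given with the comparisons above. In WT tumours 0 other adipocyte genes were called without the filter, with limma voom and with a replicate block by title or description number (1 in the fit reported). In B-depleted tumours the 65 genes called became 35 without the filter, 397 with DESeq2, 102 with voom, 33 and 14 with the replicate block by title and description number, 6 with only the compared arms and 37 after thinning. Between isotype arms 1 gene was called without the filter, 5 by DESeq2 and 1 with either replicate block. Under the combination 3343 genes were called without the filter. Of the 8 genes 1 was called there without the filter or after thinning, and 0 with voom, either replicate block or only the compared arms. Other adipocyte genes called there were 0 with voom, either block, only the compared arms or thinning. For the difference between responses DESeq2 called 1210 genes, the block by title number 0 and thinning 10. Of same-numbered libraries from different arms, 9 of 30 pairs by title and 7 of 27 by description correlated above 0.1. The median r was 0.027 and -0.028, and the highest was 0.553 by either number. Pairs with different numbers were not compared, so whether the numbers pair the libraries was not tested. By Spearman's rho 1 of the 10 most alike genes was shared, and 2 without B-depleted combination replicate 4.

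Leaving out 1 library gave 7691 to 10240 genes and 0 to 1 other adipocyte genes in WT tumours, 11 to 176 genes in B-depleted tumours and 0 to 2 between isotype arms. Under the combination it gave 2182 to 7606 genes, 0 to 3 of the 8 and 0 to 2 other adipocyte genes, and 0 to 1540 genes for the difference between responses. The Cfd change under the combination ranged from -0.76 (without B-depleted combination replicate 4) to 6.15. Beyond the values without that library, the cause of these shifts was not tested. Depth limits Adipoq, Retn and Lep, which had no count in 8, 4 and 12 libraries.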

Other observations

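By a rule chosen after the values were seen, at least 20 counts and 4 times the level of every other library, 33 genes stood out in B-depleted combination replicate 4. They included 7 of the 8 genes (all but Fabp4) and 9 of the 16 other adipocyte genes. Among the remaining 17 were Tmem45b (100.2 times the next library), Pck1, which supplies glycerol phosphate in fat (79.1), the lipase Ces1d (77.01) and Cyp2e1 (33.06). In the other 20 libraries 0 to 70 genes met the rule, with a median of 2. The 70 were in WT combination replicate 2 and included 34 keratin and keratin-associated genes.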
